A study of Mus musculus with 28 samples.

Results

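Ribosome footprints of MN1 cells that received wild-type human TDP-43 (hTDP-43, 2 libraries) were compared with those of MN1 cells that received green fluorescent protein (GFP, 2 libraries). These 4 libraries were chosen by their labels, as the MN1 footprint samples of those groups, out of 28 libraries in the series. The series also holds total mRNA libraries of the same MN1 cultures, MN1 cultures with the disease mutant hTDP-43 A315T, and cortical neurons of transgenic mice. MN1 is a clonal line made by fusing mouse spinal motor neurons with neuroblastoma cells. All MN1 cultures were transiently transfected, so that only some of the cells need have taken up a plasmid. The hTDP-43 plasmid carried the human coding sequence with a FLAG tag at the N-terminus and a V5 tag at the C-terminus, in a pCMV Sport6 backbone. Every MN1 culture, GFP controls included, was treated with cycloheximide at 100 µg/ml for 3 min before lysis, and footprints came from monosome fractions. Libraries with the same replicate number carry the same day and month in their labels, and replicate 1 and replicate 2 were therefore treated as pairs. The year is also shared, apart from that in the label of GFP footprint replicate 1, which is later. The labels do not say whether the replicates came from separate cultures beyond these dates, and p-values refer to these samples only. The spread behind the p-values was taken largely from other genes, and in the total mRNA fit in effect wholly, not from the replicates of each gene alone.

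TDP-43, encoded by Tardbp in the mouse, is a nuclear RNA-binding protein that binds UG-rich sequence and acts in splicing, stability and transport of RNA. It limits its own level by binding its own mRNA, and it forms cytoplasmic aggregates in amyotrophic lateral sclerosis and frontotemporal dementia. Ribosome profiling sequences the short mRNA fragments that a ribosome protects from RNase, so the footprint count of a gene follows both its mRNA level and how many ribosomes sit on each mRNA. Other RNA fragments of similar size in the monosome fractions enter the same libraries. Fewer transfected cells and a smaller change in each cell cannot be told apart in such bulk samples.

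The footprint libraries held 940822 and 849125 reads on exons with GFP (replicates 1 and 2) and 631354 and 332370 with hTDP-43. The shallowest of the 4 was thus hTDP-43 replicate 2. Expression is given as CPM (read counts scaled to a common library size), scaled between libraries by the TMM method, and 3 counts, taken as the detection floor, amounted to between 3.19 and 9.03 CPM. Protein-coding genes took from 90.3% to 93.0% of the reads of each library.

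The libraries carried neuronal transcripts, with few of the genes that define mature motor neurons. Peripherin (Prph) lay between 726 and 1000.0 CPM and neuronal beta-tubulin (Tubb3) between 518 and 539 CPM in the 4 libraries. Isl1, a transcription factor of motor and sympathetic neurons, lay between 37.1 and 51.8 CPM, and the vesicular acetylcholine transporter Slc18a3 between 15.5 and 30.3 CPM. Mnx1, the homeobox gene that marks motor neurons, reached at most 1.13 CPM and choline acetyltransferase (Chat) at most 3.09 CPM, both at or under the detection floor. The sympathetic factors Phox2a (477 to 542 CPM) and Hand2 (471 to 624 CPM) were plainly present. Summed over each list, markers of astrocytes (0.0 to 6.06 CPM), oligodendrocytes (1.55 to 9.09), microglia (3.17 to 9.09) and fibroblasts (0.0 to 6.19) were near the floor. Endothelial markers summed to between 11.6 and 27.3 CPM, and among them Kdr, a receptor of vascular endothelial growth factor, lay between 6.19 and 21.2 CPM. Gfap, Mog, Csf1r, Dcn and Cdh5 had no read in any of the 4 libraries.

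Genes of unlike kinds passed the test in footprints, and 3 were higher and 3 lower with hTDP-43. The 3 higher genes were Gm13886, a processed pseudogene of Tardbp, Crx, a homeobox transcription factor of photoreceptors, and the miRNA gene Mir6236. The 3 lower genes were Gm25313 and Gm23143, both copies of the U5 small nuclear RNA (snRNA) of the spliceosome, and H2-Bl, a class I histocompatibility gene annotated as a polymorphic pseudogene. Thus 1 of the 6, Crx, was an ordinary protein-coding gene, and its rise was seen in replicate 2 only. The test was edgeR's quasi-likelihood F-test with the replicate number as a block, and 6 of 8334 genes had a Benjamini-Hochberg adjusted p below 0.05 (0.072% of the genes tested, with 0.036% in either direction). An unadjusted p below 0.05 was reached by 291 genes, which is 3.49% of those tested. The blocked fit left 1 residual degree of freedom, so its spread was taken largely from the other genes. Without the block, edgeR called 0 genes, the smallest adjusted p was 0.148, and 113 genes had an unadjusted p below 0.05. DESeq2 called 1 gene, Gm13886, both with and without the block, and the older form of the quasi-likelihood method, which that edgeR version runs by default, called 13.

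Sequences are shown for Gm13886 and Mir6236 among the called genes. The first pair sets the start of Gm13886 beside the matching stretch of the Tardbp transcript, with the bases that differ in capitals. Gm13886 was read from the GRCm38 genome at chr2:104820179-104820268 on the plus strand. The Tardbp stretch was read from the GENCODE M21 transcript sequence, at positions 402 to 491.
Gm13886: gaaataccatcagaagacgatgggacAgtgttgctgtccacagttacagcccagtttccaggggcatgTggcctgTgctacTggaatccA
Tardbp: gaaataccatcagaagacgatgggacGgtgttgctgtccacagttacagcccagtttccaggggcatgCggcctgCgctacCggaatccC
Over 1202 aligned positions the pseudogene was 94.2% identical to positions 402 to 1598 of the Tardbp transcript, whose coding sequence spans positions 354 to 1595. Of the 1154 windows of 30 bases in Gm13886, 19.4% were identical to the Tardbp transcript and 83.5% lay within 3 mismatches of it.

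The other sequence shown is the mature miRNA that RefSeq (GRCm38) lists for Mir6236, at chr9:110281353-110281371 on the plus strand, with its seed, bases 2 to 8, in capitals.
mmu-miR-6236: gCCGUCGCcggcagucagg
The counts of Mir6236 were made over its whole hairpin, at chr9:110281287-110281409.

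**Figure D1:**
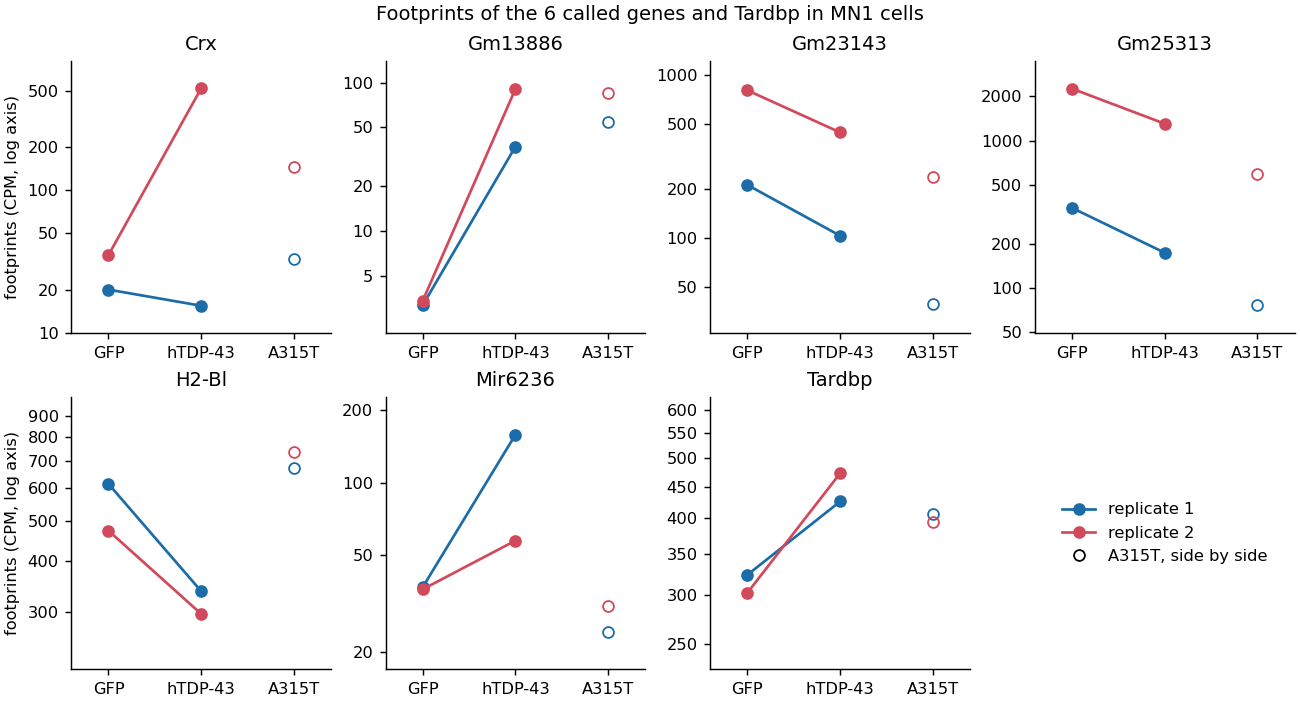
Footprint CPM (log axis, with its own range for each gene) of the 6 called genes and Tardbp in each MN1 library, with a line joining the GFP and hTDP-43 libraries of a replicate and open points for hTDP-43 A315T. Crx falls from 20.1 to 15.5 CPM in replicate 1 and climbs from 35.1 to 521 CPM in replicate 2, while the lines of the other genes run the same way in both replicates.

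Reads on the TDP-43 gene and its pseudogene were compared between GFP cultures and those given a TDP-43 coding sequence. As counts per gene, these reads cannot separate the label hTDP-43 from hTDP-43 A315T. Gm13886 had 3 and 3 footprint reads with GFP and 24 and 30 with hTDP-43 (replicates 1 and 2), or 3.17 and 3.40 CPM against 37.1 and 90.9 CPM. Both hTDP-43 libraries lay above both GFP libraries, where the pseudogene was at or under the detection floor. Its log2 fold change was 4.16 ± 0.48 (SE, edgeR adjusted p = 3.63e-05, n = 2 libraries a group). From the counts alone, the log2 ratio was 3.55 in replicate 1 (95% exact binomial interval 1.83 to 5.92, counting error only) and 4.74 in replicate 2 (3.06 to 7.10).

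In total mRNA, Gm13886 was listed at 0.0 and 2.13 CPM with GFP and 76.2 and 77.6 CPM with hTDP-43, a log2 fold change of 5.81 ± 0.34 (edgeR adjusted p = 7.64e-62). With the hTDP-43 A315T libraries added to the fit, Gm13886 had an edgeR adjusted p of 2.8e-08. It was the gene that the footprint and total mRNA comparisons both called. The hTDP-43 A315T cultures, which carried the same tagged coding sequence with 1 residue changed, had 54.6 and 84.9 CPM of Gm13886 in footprints. The deposited counts were made on the mouse genome, and reads of the human coding sequence have no place of their own there. How much of the signal on Gm13886 came from the plasmid was not tested.

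Tardbp itself, at chr4:148612382-148627019 on the minus strand, had 323 and 302 CPM with GFP and 426 and 473 CPM with hTDP-43 in footprints. The groups did not overlap, yet Tardbp did not pass the test, with a log2 fold change of 0.52 ± 0.13 and an edgeR adjusted p of 0.41. In total mRNA it did, at 304 and 264 CPM with GFP against 510 and 428 CPM with hTDP-43 (log2 fold change 0.72 ± 0.08, edgeR adjusted p = 2.82e-14). Both quantities were close in size, and the test of their difference, the translational efficiency, gave -0.21 ± 0.20 on the log2 scale (edgeR adjusted p = 1.0). Reads of mouse Tardbp and reads of the human coding sequence that fit the mouse gene cannot be told apart in these counts. The paper's blots showed less endogenous TDP-43 protein in MN1 cells given either form, and footprints do not measure protein.

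Crx lies at chr7:15865947-15879968 on the minus strand, and no other annotated gene overlaps it. It had 20.1 and 35.1 CPM with GFP and 15.5 and 521 CPM with hTDP-43, from 19, 31, 10 and 172 reads. A single library, hTDP-43 replicate 2, stood above the other 3, and the groups overlapped. The hTDP-43 A315T footprints had 32.9 and 144.7 CPM of Crx, also higher in replicate 2. Against the same GFP libraries their log2 fold change was 1.55 ± 0.29 (edgeR adjusted p = 0.0242). The fit gave a log2 fold change of 2.73 ± 0.23 (edgeR adjusted p = 1.43e-07), between a log2 ratio of -0.38 in replicate 1 (95% exact binomial interval -1.64 to 0.80) and 3.89 in replicate 2 (3.33 to 4.49). That SE does not reflect the gap between these ratios. Without the block the log2 fold change was 3.23 ± 1.01, and Crx did not pass. In a fit over 6 libraries with those of hTDP-43 A315T added, the log2 fold change of Crx was 0.21 without hTDP-43 replicate 2 (edgeR adjusted p = 0.983) and 0.95 without GFP replicate 2 (edgeR adjusted p = 1.0). Over all its alternatives the adjusted p ranged from 8.56e-51 to 1.0. Total mRNA reads on Crx numbered 0, 6, 3 and 14, and it was filtered out of that comparison.

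Other genes shared the high values in replicate 2 of the footprints. E2f5, a transcription factor of the cell cycle, had 56.0 and 931 CPM with GFP and 29.4 and 2146 CPM with hTDP-43. Taf5l, a subunit of a histone acetylase complex, had 62.4 and 358 CPM with GFP and 63.4 and 752 CPM with hTDP-43, and Akap12, a scaffold of protein kinase A, had 65.5 and 263 CPM against 77.4 and 485 CPM. In all 3 genes both groups were higher in replicate 2 than in replicate 1, with hTDP-43 replicate 2 the highest of the 4 libraries. The hTDP-43 A315T libraries had 41.6 and 569 CPM of E2f5, 58.9 and 370 CPM of Taf5l, and 101 and 88.7 CPM of Akap12. Total mRNA of E2f5 was 20.3 and 43.9 CPM with GFP and 26.0 and 58.9 CPM with hTDP-43, also higher in replicate 2. Total mRNA of Taf5l lay between 107 and 135 CPM and that of Akap12 between 72.2 and 98.5 CPM in the GFP and hTDP-43 libraries. None of the 3 passed the footprint test, with log2 fold changes of 0.62 ± 0.24 for E2f5, 0.70 ± 0.18 for Taf5l and 0.63 ± 0.16 for Akap12 (edgeR adjusted p = 1.0, 0.448 and 0.455).

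**Figure D2:**
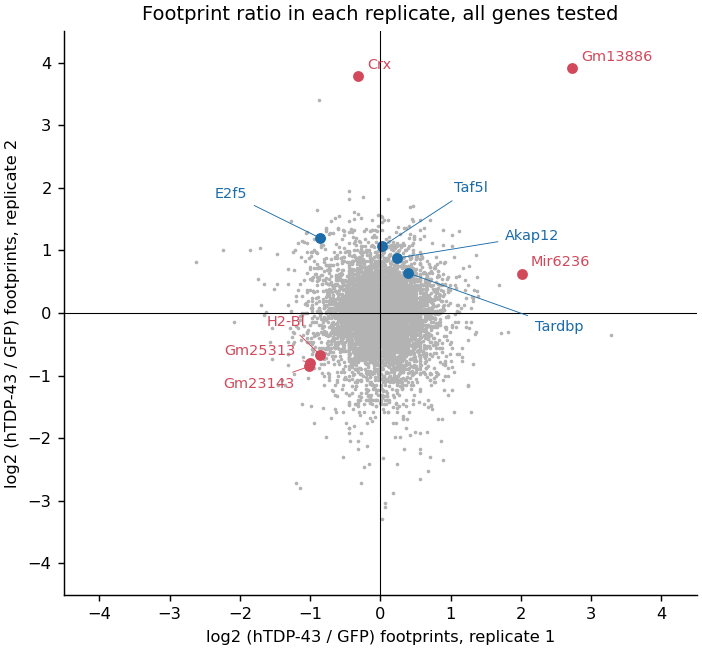
Log2 ratio of hTDP-43 over GFP footprint CPM (prior count 2) in replicate 1 (horizontal) and replicate 2 (vertical) for the 8334 genes tested, with the called genes in red and other named genes in blue. The cloud has no slope (r = -0.046), Gm13886 and Mir6236 lie to the upper right, the U5 copies and H2-Bl to the lower left, and Crx sits high on the vertical axis at -0.32 in replicate 1.

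Across all genes the replicates shared little. The log2 ratio of hTDP-43 over GFP in replicate 1 and that in replicate 2 had a Pearson r of -0.046 and a Spearman rho of -0.037 over 8334 genes, which are not independent of each other. Both ratios had the same sign in 48.8% of the genes. The SD of the ratio over genes was 0.38 in replicate 1 and 0.50 in replicate 2, and the SD of the difference between the replicates, averaged over the groups, was 0.45. Of the 6 called genes, 5 had the same direction in both replicates, and Crx did not. The blocked test on these libraries favours genes whose ratios agree, so the shared directions are not independent evidence.

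The U5 snRNA builds the core of the spliceosome with several proteins, and the genome holds many near-identical copies of its gene. Gm25313 had 350 and 2260 CPM with GFP and 173 and 1306 CPM with hTDP-43 in footprints. Both replicates fell, but replicate 2 lay far above replicate 1 in either group, so the groups overlapped. The log2 fold change was -0.89 ± 0.13 (edgeR adjusted p = 8.07e-04), from -1.01 in replicate 1 (95% exact binomial interval -1.34 to -0.70) and -0.79 in replicate 2 (-0.94 to -0.64).

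Gm23143 had 212 and 806 CPM with GFP and 104 and 446 CPM with hTDP-43, with a log2 fold change of -0.93 ± 0.13 (edgeR adjusted p = 8.07e-04). It was again lower with hTDP-43 in both replicates, by ratios of -1.03 and -0.86 on the log2 scale. Without the block the log2 fold changes were -0.83 ± 0.82 for Gm25313 and -0.92 ± 0.62 for Gm23143, and neither passed (edgeR adjusted p = 1.0 for each).

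Of 10 annotated U5 copies, including Rnu5g, the copy with which the others were matched, 5 had enough reads to be tested, and all 5 had lower fitted footprint values with hTDP-43. Besides the 2 called copies these were Rnu5g (-0.63 ± 0.19), Gm23287 (-0.68 ± 0.22) and Gm22265 (-0.96 ± 0.42), each with an edgeR adjusted p of 1.0. Reads of one copy can be placed on another, so the copies are not independent. Summed over all 10 copies, footprints amounted to 666 and 3575 CPM with GFP and to 345 and 2052 CPM with hTDP-43. The hTDP-43 A315T libraries had 138 and 974 CPM, lower still, and are compared with the same GFP libraries. All snRNA genes together took 0.196% and 0.430% of footprint reads with GFP and 0.191% and 0.263% with hTDP-43 (replicates 1 and 2). Of 9 snRNA genes tested, 6 had log2 fold changes below 0, the 5 U5 copies among them. In total mRNA the copies summed to 10.8 and 79.8 CPM with GFP and 16.7 and 87.3 CPM with hTDP-43, and neither called copy passed there (log2 fold changes of 0.15 ± 0.22 and 0.38 ± 0.38). U5 snRNA has no poly(A) tail, and the total mRNA was selected for one. The authors had removed reads that aligned to annotated non-coding RNAs, and these counts are what was left; whether that step left the same share in each library was not tested.

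**Figure D3:**
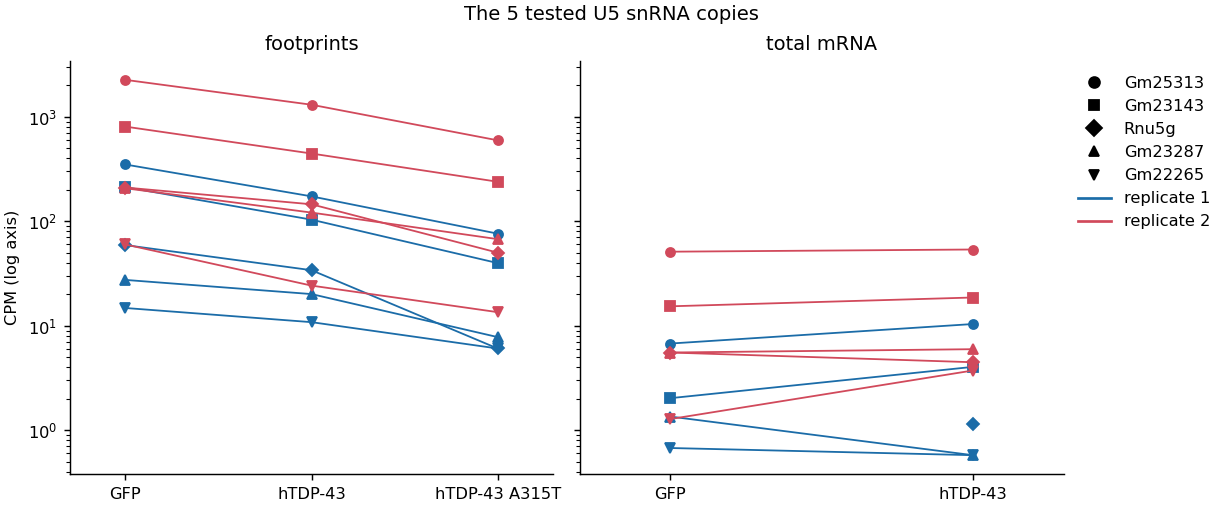
CPM (log axis) of the 5 tested U5 snRNA copies in footprints (left) and total mRNA (right), with 1 marker per copy and 1 colour per replicate. Every footprint line descends from GFP to hTDP-43, replicate 2 lies above replicate 1, and the total mRNA values are far lower. Rnu5g is listed at 0 in total mRNA of GFP replicate 1 and has no point there.

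H2-Bl, at chr17:36080115-36084223 on the minus strand, belongs to a family of class I histocompatibility genes that present peptides at the cell surface. It had 615 and 473 CPM with GFP and 337 and 297 CPM with hTDP-43 in footprints. Both hTDP-43 libraries lay below both GFP libraries, with a log2 fold change of -0.78 ± 0.13 (edgeR adjusted p = 0.00477). In total mRNA the values were 18.3 and 32.9 CPM with GFP and 22.5 and 32.8 CPM with hTDP-43 (log2 fold change 0.11 ± 0.23, edgeR adjusted p = 0.974). The hTDP-43 A315T footprints had 672 and 735 CPM, above all 4 libraries compared here. H2-Bl has close paralogs whose reads can fall on it, and its counts are uncertain for that reason.

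Mir6236 had 37.0 and 36.2 CPM with GFP and 158 and 57.6 CPM with hTDP-43 in footprints, from 35, 32, 102 and 19 reads. Both hTDP-43 libraries were above the GFP libraries, replicate 1 by far more than replicate 2. The log2 fold change was 1.55 ± 0.27 (edgeR adjusted p = 0.00969), with a log2 ratio of 2.09 in replicate 1 (95% exact binomial interval 1.53 to 2.69) and 0.67 in replicate 2 (-0.23 to 1.53). The counting interval of replicate 2 includes 0. The hTDP-43 A315T footprints had 24.25 and 30.86 CPM of Mir6236, below both GFP libraries (log2 fold change -0.45 ± 0.29, edgeR adjusted p = 0.733). Total mRNA reads over the same hairpin were far more numerous, at 345 and 953 CPM with GFP and 480 and 866 CPM with hTDP-43, and did not pass the test (log2 fold change 0.13 ± 0.08, edgeR adjusted p = 0.821). Footprints of this length over a hairpin do not measure the mature miRNA.

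The next genes by p did not pass, with edgeR adjusted p-values from 0.189 upward. Srp19, a protein of the signal recognition particle that brings ribosomes to the endoplasmic reticulum, had 25.4 and 43.03 CPM with GFP and 69.6 and 84.9 CPM with hTDP-43. The groups did not overlap, and the log2 fold change was 1.21 ± 0.27 (edgeR adjusted p = 0.189). Its total mRNA differed by 0.19 ± 0.18 on the same scale. Jmjd6, an oxygenase that modifies splicing factors, had 239 and 136 CPM with GFP and 144 and 87.9 CPM with hTDP-43, lower in each replicate although the groups overlapped. Its log2 fold changes were -0.69 ± 0.16 in footprints (edgeR adjusted p = 0.24) and -0.34 ± 0.09 in total mRNA (edgeR adjusted p = 0.0394).

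Cnnm4, a magnesium transporter, had 52.9 and 72.5 CPM with GFP and 71.2 and 194 CPM with hTDP-43 (log2 fold change 0.96 ± 0.22, edgeR adjusted p = 0.24). Sfxn1, the serine carrier of mitochondria, had 72.9 and 66.8 CPM with GFP and 110 and 130 CPM with hTDP-43 (0.76 ± 0.20), while its total mRNA was 146 and 141 CPM with GFP and 115 and 116 CPM with hTDP-43 (-0.32 ± 0.11). The footprint groups of Sfxn1 did not overlap and lay in the opposite order to those of its total mRNA, but neither difference passed (edgeR adjusted p = 0.455 and 0.309). The lipid kinase Pi4kb (1.19 ± 0.32), the histone gene Hist1h4c (-0.50 ± 0.13) and the vault RNA gene Vaultrc5 (-0.61 ± 0.16) complete these genes, with edgeR adjusted p-values from 0.455 to 0.568. Hist1h4c is 1 of many near-identical histone H4 genes, and its counts are uncertain.

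Total mRNA of the same cultures had more called genes, most of them lower with hTDP-43 and highest in GFP replicate 1. There, 49 of 9954 genes passed in the same blocked test (0.492% of those tested), 10 higher and 39 lower. The spread in that fit came in effect wholly from other genes (median prior degrees of freedom infinite, against 22.9 in footprints). The counts of calls in total mRNA and in footprints are therefore not directly comparable. Of the 10 higher genes all were tested in footprints, and 8 had the same sign there, with a median footprint log2 fold change of 0.13 against 0.57 in total mRNA. Of the 39 lower genes 30 were tested in footprints, and 19 had the same sign, with a median of -0.17 against -0.55. Apart from Ttyh1, Camta1 and Rn7sk, the lower genes had their highest total mRNA value in GFP replicate 1. Csf2 had 96.7 CPM there, against 18.3 CPM in GFP replicate 2 and 24.8 and 11.9 CPM with hTDP-43. Over all 8246 genes tested in both, 52.6% had the same sign, and the log2 fold changes had a Pearson r of 0.085 across genes. The median SE of a log2 fold change was 0.28 in footprints and 0.17 in total mRNA. Without the block, edgeR called 1 gene in total mRNA, Gm13886, and with the hTDP-43 A315T libraries in the fit it called 3, Gm13886, Tardbp and Rassf3. Footprints had 4 calls in that wider fit.

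Translational efficiency, the footprint change beyond that of the mRNA, passed the test for no gene. edgeR called 0 of 9887 genes (0.0%) with the culture as a block, 188 had an unadjusted p below 0.05, and DESeq2 and limma-voom also called 0. Among the named genes, values of the greatest size were those of Gm13886 (-1.82 ± 1.05), Camta1 (1.48 ± 0.53), Mir6236 (1.46 ± 0.59), Gm23143 (-1.31 ± 0.34) and Dnajb6 (-1.24 ± 0.59), all on the log2 scale and with edgeR adjusted p-values of 1.0. Pi4kb (1.19 ± 0.36), Gm25313 (-1.13 ± 0.25) and Sfxn1 (1.08 ± 0.25) followed, also with edgeR adjusted p-values of 1.0.

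**Figure D4:**
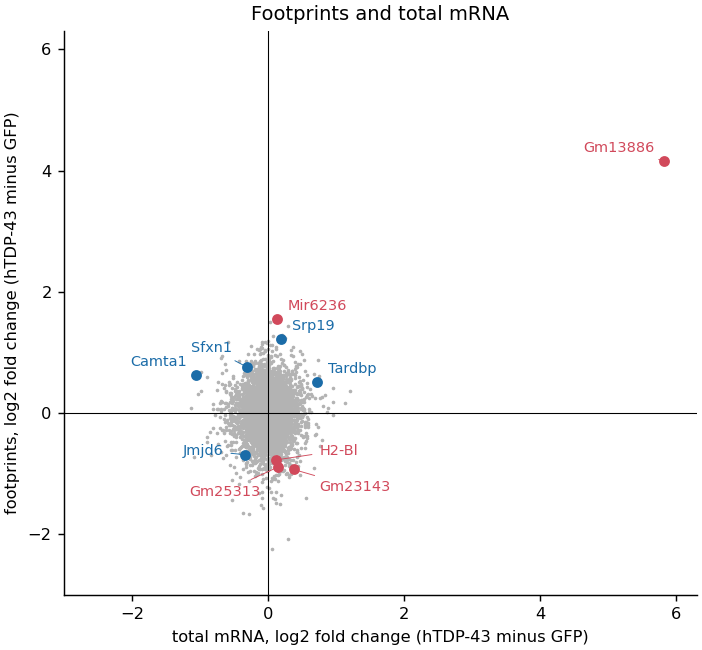
Log2 fold change (hTDP-43 minus GFP) in footprints (vertical) against that in total mRNA (horizontal) for the 8246 genes tested in both, with called genes in red and other named genes in blue. Gm13886 stands alone at 5.81 and 4.16, the U5 copies and H2-Bl lie below the horizontal line near 0 in total mRNA, and Crx is missing since it was filtered out of total mRNA.

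The study followed up Camta1, Mid1ip1 (also called Mig12), Dennd4a and Pth1r, which it had chosen from its MN1 and neuron profiling among mRNAs that responded to hTDP-43 A315T alone. These libraries took part in that choice, so that none of the 4 passed with hTDP-43 in footprints is not independent evidence. The paper also listed genes that differed between hTDP-43 and control in MN1 footprints. In its later assays wild-type hTDP-43, like the mutant, raised luciferase reporters with leader sequences of Camta1 and Mid1ip1. Both forms also raised the proteins of these genes in MN1 cells, which footprints do not measure. Camta1, a calmodulin-binding transcription activator, had 29.6 and 97.4 CPM with GFP and 27.9 and 194 CPM with hTDP-43 (log2 fold change 0.63 ± 0.25, edgeR adjusted p = 1.0). Its ratio was near 0 in replicate 1 (-0.09) and 0.99 in replicate 2. In total mRNA Camta1 passed in the other direction (-1.06 ± 0.20, edgeR adjusted p = 1.07e-04), where GFP replicate 2 at 83.2 CPM stood above the other 3 libraries, which had 18.3, 19.1 and 27.6 CPM. That call was lost without the block and with the hTDP-43 A315T libraries in the fit (edgeR adjusted p = 1.0 and 0.999).

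Mid1ip1, a regulator of fatty acid synthesis and microtubules, had 549 and 171 CPM with GFP and 521 and 306 CPM with hTDP-43 (log2 fold change 0.32 ± 0.16). Dennd4a, which activates Rab GTPases, had 154 and 79.3 CPM with GFP and 147 and 87.9 CPM with hTDP-43. The parathyroid hormone receptor Pth1r had 60.2 and 24.9 CPM with GFP and 41.8 and 33.3 CPM with hTDP-43 (-0.22 ± 0.32). In each of the 3 genes the groups overlapped and the ratio changed its sign between the replicates. The A315T footprints had 59.8 and 625 CPM of Camta1, 1002 and 621 CPM of Mid1ip1, 439 and 367 CPM of Dennd4a, and 124 and 112 CPM of Pth1r. Against the same GFP libraries these gave log2 fold changes of 2.20 ± 0.25, 1.29 ± 0.17, 1.802 ± 0.15 and 1.44 ± 0.23, which are set here beside the hTDP-43 values without a test of the difference.

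No gene of the lists drawn up for TDP-43, translation, stress and growth passed in footprints. Over 14 lists with 374 tested genes, 0 passed by edgeR, the smallest adjusted p was the 0.41 of Tardbp, and 13 genes (3.48%) had an unadjusted p below 0.05, beside 3.49% of all genes. The median log2 fold change of all genes was 0.00. Of 79 cytosolic ribosomal proteins, the building blocks of the ribosome, 50 had values above 0 and the median was 0.05, with Rpl18 (0.67 ± 0.30) and Rpl29 (0.39 ± 0.17) at the smallest p. The median of these proteins was 0.00 in replicate 1 and 0.10 in replicate 2. Of 53 translation factors 24 were above 0, with a median of -0.02, and Eef1e1, an accessory protein of the tRNA synthetase complex, had 0.50 ± 0.19. Eif2b3, a subunit of the exchange factor that recycles eIF2, had -0.67 ± 0.33.

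Among 16 tested mRNAs with reported TDP-43 binding or regulation the median was 0.02, and the values ran from -0.44 to 0.24. Sort1, a trafficking receptor whose splicing TDP-43 controls, had the smallest p there, with 62.4 and 70.2 CPM with GFP and 48.0 and 48.5 CPM with hTDP-43 (-0.44 ± 0.25, edgeR adjusted p = 1.0). Of 36 hnRNP and SR splicing factors, Hnrnpk came first with 815 and 740 CPM against 650 and 558 CPM (-0.36 ± 0.12), and Hnrnpul2 next (-0.30 ± 0.16), both with an edgeR adjusted p of 1.0. The median of that list was -0.01. Of the stress granule and ALS genes, 31 were tested, with a median of 0.00, and Fxr1 (-0.29 ± 0.14) and Chmp2b (0.62 ± 0.37) had the smallest p.

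The lists for stress and growth also had medians near that of all genes. The integrated stress and unfolded protein responses had a median of 0.01 over 34 tested genes, with Sesn2 (0.60 ± 0.35) and Edem1 (0.51 ± 0.31) at the smallest p. Of 18 heat shock proteins and co-chaperones the median was -0.02, and Dnajb6 had 20.1 and 23.8 CPM with GFP and 15.5 and 3.03 CPM with hTDP-43, the last from 1 read. Interferon-stimulated genes, which serve antiviral defence, had a median of 0.04 over 15 tested genes, led by Isg15 (0.36 ± 0.19) and Stat2 (0.34 ± 0.30), and Ifit2, Ifit3, Ifi44, Mx1 and Mx2 had no read in the 4 libraries.

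The cell cycle list had a median of -0.03 over 36 genes, led by Ccne2, the cyclin of S-phase entry (0.74 ± 0.28), and by E2f5. Cholesterol and fatty acid synthesis had a median of -0.03 over 29 genes, with Mvd (-0.40 ± 0.18) and Mid1ip1 at the smallest p. Immediate-early genes had -0.04 over 19 genes, with Ier3 (-0.63 ± 0.28) and Dusp4 (-0.23 ± 0.13), and proteins encoded by mitochondrial DNA had 0.06 over 8, with mt-Nd2 (0.34 ± 0.20) and mt-Nd6 (0.16 ± 0.17). The mitochondrial median was 0.27 in replicate 1 and -0.21 in replicate 2. Each of these genes had an edgeR adjusted p of 1.0. At this depth differences far larger than the median SE of 0.28 could go undetected, since Srp19, at 1.21 ± 0.27, did not pass.

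**Figure D5:**
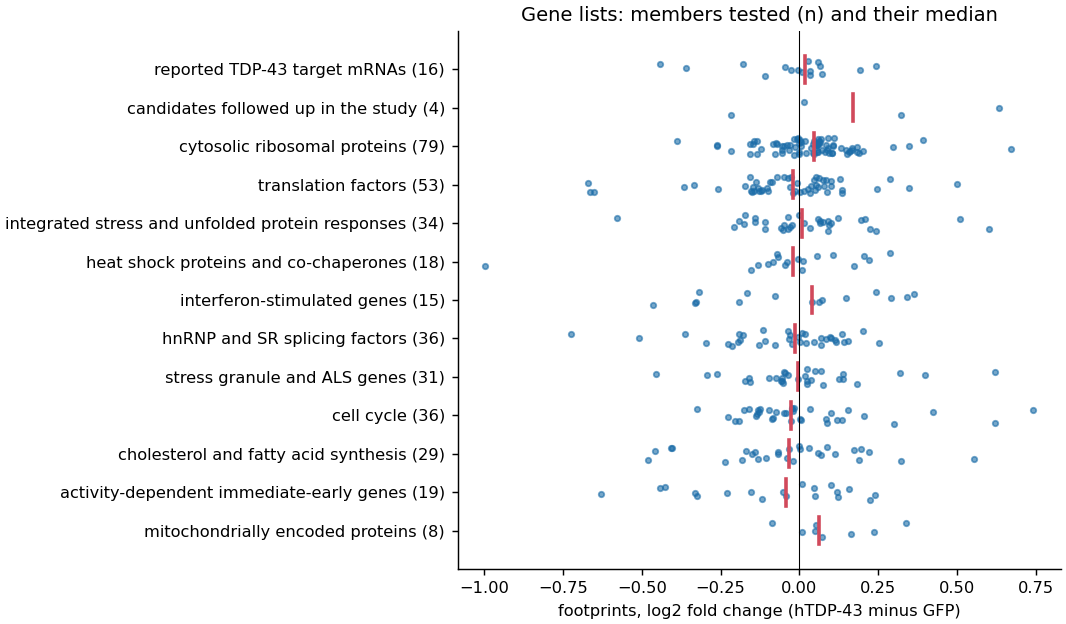
Log2 fold change (hTDP-43 minus GFP) in footprints of the tested members of 13 gene lists, with the number tested in brackets, 1 blue point per gene and a red bar at the median. The bars lie between -0.04 and 0.17, and the highest is that of the 4 candidates.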

How the data were processed

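The authors clipped adapters with cutadapt 1.8.1, filtered out reads that matched non-coding RNAs of the annotation (bowtie2), mapped the rest to GRCm38 with TopHat2 and counted reads on exons with featureCounts 1.4.4 and Ensembl 80 annotation. The deposited values are these raw counts per gene, neither normalized nor pooled, for 45513 genes. Per the file headers, counting used no option for strand, multi-mapping reads or overlapping genes. Symbols and biotypes came from GENCODE M21 of GRCm38, in which 44671 of the genes were found. Gene coordinates were those deposited with the counts, and 36699 genes had the same start and end in M21.

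The filterByExpr function of edgeR (minimum count 10, total 15) selected the genes to test in the 4 libraries compared. Counts were scaled by TMM and fitted with the replicate as a block by edgeR 4.0.16 (quasi-likelihood, current method) in R 4.3.3. A standard error is the size of the log2 fold change over the square root of F. Translational efficiency was the interaction of library type and protein, with the culture as a block. DESeq2 1.42.0 and limma-voom (limma 3.58.1) were alternatives, the latter chosen after seeing the data. The study used DESeq without stating a block. The pairing rests on the shared replicate numbers and dates: deviations of same-numbered libraries from their group means had r = 0.34 in footprints and 0.55 in total mRNA. Intervals and floors cover counting error only, since reads carry no molecular identifiers. The scripts were tested on simulated data.

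Named were all called genes, the next 10 by p, genes called for translational efficiency, Tardbp, the 4 candidates, and the 2 members of every other list with the smallest p. Gm23287, Gm22265, Rnu5g, Rassf3, Csf2, Ttyh1 and Rn7sk were named after their values were seen. The comparison and the lists were chosen with earlier results of these data known. No pair of libraries had identical counts. Neuron libraries were not used here. The sequences of the U5 copies are not reported here.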

Additional observations from a re-analysis of the deposited data

How the results depend on the processing

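The count of 6 genes called in footprints moved with most choices. It was 0 without the replicate block, 0 with no filter on low counts, 0 at a minimum count of 30 and 0 after thinning all libraries to the shallowest. DESeq2 called 1 with the block and 1 without it, and the test of protein-coding genes alone called 1 (Crx). Scaling by library size alone gave 20, the earlier quasi-likelihood method 13 and limma-voom 19. RLE scaling and robust estimation gave 6 each, and 4 were called with the hTDP-43 A315T libraries in the fit. Leaving out 1 library gave from 1 to 40 calls: 19 without GFP replicate 1, 8 without GFP replicate 2, 40 without hTDP-43 replicate 1 and 7 without hTDP-43 replicate 2 in the fit of 6 libraries, and 2, 1, 3 and 12 in that order without the block, where the lone library was assumed to vary like the other group. Gm13886 passed in 15 of 19 alternatives that tested it, Gm25313 in 11 of 20, Gm23143 in 10, Crx in 9, and H2-Bl and Mir6236 in 8 each. With 1 library left out and no block, 1 replicate is set against both replicates of the other group, so differences between replicates enter the fold change. In these fits the log2 fold change of Crx ran from -0.82 (without hTDP-43 replicate 2) to 4.23, and that of Gm23143 from -2.29 to 0.34 (without GFP replicate 2). That of Gm25313 ran from -2.91 to 1.07 (without GFP replicate 2), with 0.000352 without hTDP-43 replicate 1. No fit that kept the block changed the sign of Crx, Gm23143 or Gm25313. In the blocked fit of 6 libraries the log2 fold change was -0.89 for Gm25313 and -0.94 for Gm23143. E2f5 ran from -4.06, called without hTDP-43 replicate 2 (edgeR adjusted p = 0.00114, with 1.44e-16 to 1.0 over its alternatives), to 4.26.

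The 49 calls in total mRNA became 1 without the replicate block, 2 with DESeq2 (1 without the block), 0 with no filter on low counts, 30 with limma-voom and 3 with the hTDP-43 A315T libraries in the fit. Leaving out 1 library gave from 1 to 27 (27 without GFP replicate 2). Translational efficiency had from 0 to 5 calls, with 5 (Gm25732, Mir6236, E2f5, Tollip and Rnf157) without hTDP-43 replicate 2 and 0 in every other alternative, the fit without the replicate block included. The causes were not tested. Medians of the gene lists moved by more than the spread between replicates in 2 of 42 cases, both with scaling by library size alone. With 332370 reads in the shallowest library, 3 counts amounted to 9.03 CPM, and genes below that could not be followed.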
